A study of Mus musculus with 2 samples.

Results

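A small set of cells in the library of normal mammary endothelium was filled with transcripts of salivary secretory proteins. These cells were chosen by 9 genes, Bpifa2, Smr3a, Dcpp1, Dcpp2, Dcpp3, Amy1, Pip, Car6 and Cst10, which together had to supply at least 20% of the UMIs (unique molecular identifiers, 1 per captured transcript) of a cell with 200 or more genes and less than 10% mitochondrial UMIs. Of 6924 cells within these limits, 72 were chosen, or 1.04% (Clopper-Pearson 95% interval 0.8145 to 1.308%). The library holds 9047 barcodes, and the series 9751. The study sorted CD45-/CD31+ cells to compare endothelial cells (ECs) of normal mammary glands with those of tumors formed by E0771, a mammary carcinoma line of the mouse. The normal library comes from pooled glands of C57BL/6 mice aged 6 to 8 weeks, and no treatment or transgene is named for it. Some of its labels give the cells as TECs and the source as E0771 mammary, whereas its title and the design give normal glands. No label names a salivary gland. Each condition is 1 droplet library, so no test could be made: cells of 1 library are not replicates, and every interval covers counting error only.

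Salivary acinar cells make the protein of saliva. They translate secretory proteins into the endoplasmic reticulum (ER), fold them, pass them through the Golgi and store them in granules, which fuse with the apical membrane when nerves signal, while ion channels and pumps move salt and water into the lumen. In mice, the parotid gland is mostly serous, the submandibular gland also has granular ducts that store growth factors and kallikreins, and the sublingual gland is mostly mucous with caps of serous cells called demilunes. CD31, encoded by Pecam1, marks ECs and Epcam marks epithelium.

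The 72 cells were compared with 904 other cells of the same library that had at least 2 Epcam UMIs and less than 10% of UMIs from the 9 genes, called other Epcam cells. The 5673 cells with no Epcam UMI and less than 10% from the 9 genes, called remaining cells, served as a background. The salivary secretory cells held between 919 and 327449 UMIs (median 28953) and between 218 and 5132 genes (median 2293.5). The other Epcam cells had a median of 11137 UMIs and the remaining cells a median of 3032. In these comparisons a level is the sum of UMIs over the cells of a group per 1000000 UMIs outside the 9 genes (CPM). A droplet library reads 1 end of each transcript, so levels were not divided by transcript length.

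The 9 genes set the cells far apart from all others, which is what the selection asked for and is given as a description. They made up 76.0% of the summed UMIs of the salivary secretory cells, with a median of 75.91% and a highest value of 85.31% per cell. The lowest members had 34.36, 35.27, 36.45, 45.65 and 47.46%. Just outside the threshold lay cells with 18.94, 15.73, 9.169, 8.984 and 8.719%. Between 10 and 20% there were only 2 cells, and between 5 and 10% there were 12. The 72 cells held 8.48% of the UMIs of all cells within the limits, but 97.96% of the UMIs of the 9 genes (2317440 of 2365642). In the tumor library no cell of 484 within the limits was chosen, but of the 9 genes that table lists Car6 alone, so the selection could hardly be met there and the 0 says little.

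**Figure D1:**
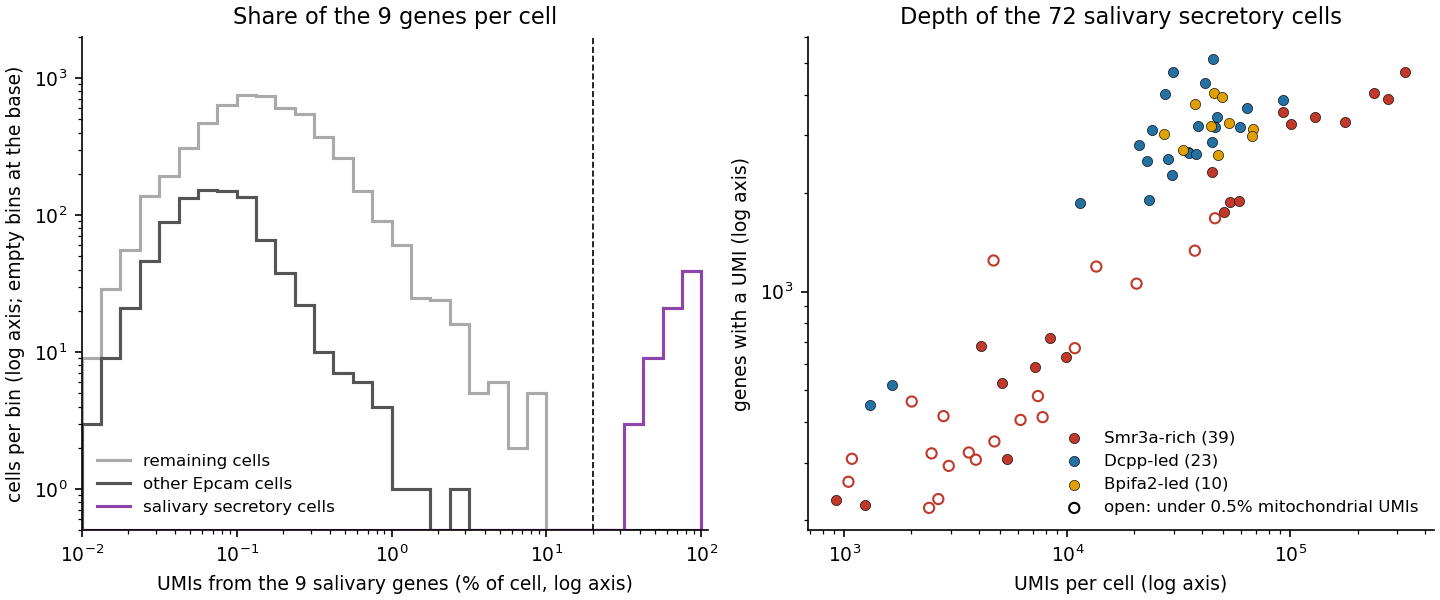
The left panel counts cells by the share of their UMIs from the 9 genes (both axes log; cells under 0.01% are not drawn), with the threshold of 20% as a dashed line, and all 72 salivary secretory cells lie at 34.36% or more. The right panel plots genes with a UMI against UMIs for each of the 72 cells (both axes log), and the open points, under 0.5% mitochondrial UMIs, are all Smr3a-rich cells.

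The label was checked against genes outside the selection. Of 10 other salivary markers, 7 are in the table and 6 were high enough to compare. Lactoperoxidase (Lpo), an antibacterial enzyme of saliva, was at 434.6 CPM in the salivary secretory cells and 4.646 CPM in the other Epcam cells. Bhlha15 (Mist1), a transcription factor of serous secretory cells, was at 58.76 against 2.824 CPM. The proline-rich protein gene Prol1 was at 45.1 CPM against a single UMI, a ratio of at least 165 with that UMI set to the floor of 3 counts. Spdef was at 30.07 against 5.102 CPM. Aqp5, the apical water channel, and Slc12a2, the basolateral chloride uptake transporter, were lower than in the other Epcam cells, at 452.4 against 1050.2 CPM and 591.7 against 4096.1 CPM. The sum of this list was therefore lower (log2 ratio -1.67) although its median gene was higher (3.47). Muc19, Smr2 and Bpifb2 were not analysed here. Pancreatic acinar and airway genes, which share secretory features, were both at 1.367 CPM, from a single UMI each. However, only 6 of 16 pancreatic acinar and 3 of 7 airway genes are listed, and none was high enough to compare.

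Epcam UMIs were found in 55 of the 72 cells (76.39%, 64.91 to 85.6%), and the other 17 also had no UMI of Ptprc, Myh11 or Cspg4. A filter that removes cells with any of these 4 transcripts would thus keep 17 salivary secretory cells. Endothelial markers were low although the sort was for CD31. Summed over 10 endothelial genes, the level was 516.6 CPM (465.8 to 571.4) in the salivary secretory cells, 420.5 CPM in the other Epcam cells and 7747.9 CPM in the remaining cells. Pecam1 was at 54.66 CPM against 1042.5 CPM in the remaining cells, and Cdh5 at 53.3 against 871.5 CPM. A UMI of Pecam1 or Cdh5 was present in 24 of the 72 cells, 281 of the 904 and 5207 of the 5673. At least 3 of the 10 genes were detected in 19 salivary secretory cells, and none in 18. Whether these UMIs come from free RNA or from droplets with more than 1 cell was not tested.

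The 9 genes occurred in differing combinations. Most of their UMIs came from Bpifa2 (parotid secretory protein, which binds bacterial surfaces) with 42.58%, Smr3a (a proline-rich submaxillary protein) with 22.83% and Dcpp1 (a demilune cell and parotid protein) with 21.23%. Amy1 (salivary amylase) gave 4.486%, Pip (prolactin-induced protein) 2.683%, Dcpp3 2.616%, Dcpp2 1.415%, Car6 (the secreted carbonic anhydrase) 1.215% and Cst10 (a cystatin) 0.9405%. By the gene with most UMIs, with the Dcpp genes taken as 1, Bpifa2 led in 43 cells, Dcpp in 23 and Smr3a in 6. After the values had been seen, cells with at least 10% Smr3a among these UMIs were set apart. Smr3a took 19.3% or more in 39 cells, called Smr3a-rich, and 0.5816% or less in the other 33, which were led by Dcpp (23 cells, Dcpp-led) or Bpifa2 (10 cells, Bpifa2-led). No cell lay near the 10% limit. The Dcpp-led and Bpifa2-led cells were split by the leading gene alone. Of the Bpifa2 and Dcpp UMIs, Bpifa2 took at most 26.63% in the Dcpp-led cells and 50.53 to 99.96% in the Bpifa2-led cells. The lowest Bpifa2-led cell thus had nearly as much Dcpp as Bpifa2.

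In the 39 Smr3a-rich cells, Bpifa2 UMIs ranged from 72 to 126389 (median 2709) and Smr3a UMIs from 187 to 102869 (median 2123). The ratio of Bpifa2 to Smr3a was between 0.101 and 3.121 (median 1.442). Amy1 was present in each of them, from 7 to 22039 UMIs (median 364), and so was Pip, from 17 to 12712 (median 206). Dcpp genes were all but missing, at 56 Dcpp1 UMIs at most and no Dcpp2 UMI in any cell. The 7 deepest salivary secretory cells were all Smr3a-rich, yet so were 15 of the 17 cells with less than 5000 UMIs. The 5 deepest had 129250 to 327449 UMIs each, of 1770884 in the whole group. Summed levels of the Smr3a-rich cells therefore describe mainly these few cells.

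In the 23 Dcpp-led cells, Dcpp1 UMIs ranged from 444 to 44238 (median 19564), and Bpifa2 UMIs from 0 to 11569 (median 1506). Smr3a had 58 UMIs at most (median 3) and Amy1 5 at most, below the lowest Amy1 count of the Smr3a-rich cells (Smr3a itself set the groups apart). The 3 Dcpp genes were used unevenly. Dcpp1 supplied between 51.85 and 99.99% of their UMIs (median 88.08%). Dcpp2 reached 113 to 19732 UMIs in 8 cells and 53 or fewer in the other 15. In 5 cells with 8223 to 22726 Dcpp1 UMIs, Dcpp3 had no more than 19, while the next cell had 105 and the highest 12511. The 3 transcripts are 94.0 to 95.6% identical where they align, so reads may have been assigned to the wrong copy or dropped, and the split between them is uncertain.

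In the 10 Bpifa2-led cells, Bpifa2 UMIs ranged from 11964 to 39939 (median 20703) and Smr3a UMIs from 0 to 46. Dcpp1 was at 949 or more UMIs in 8 of them, up to 19537, and at 13 and 80 in the other 2. The cell with 13 also had 1105 Amy1, 2244 Pip and 449 Cst10 UMIs but only 8 of Smr3a, a combination found in no other cell. The Bpifa2-led cells were similar in depth, at 27025 to 67755 UMIs, and each had 9 to 26 Epcam UMIs. Every Dcpp-led cell also had Epcam UMIs, compared with 22 of the 39 Smr3a-rich cells. The Smr3a-rich cells were shallower, however. Their median was 1707 UMIs outside the 9 genes, against 10180 in the Dcpp-led and 18428 in the Bpifa2-led cells. The part of depth in this difference was not tested.

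**Figure D2:**
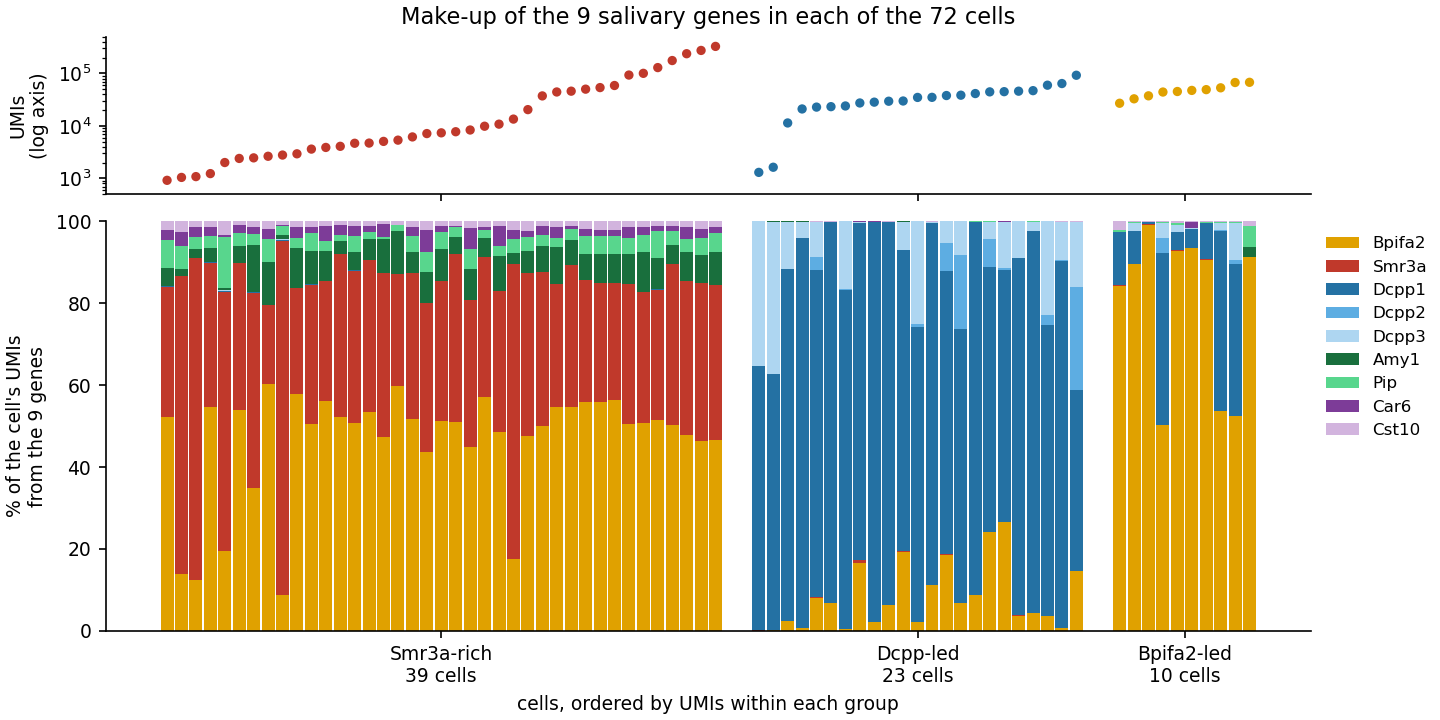
Each column is 1 of the 72 cells, ordered by UMIs within its group; the points above give its UMIs (log axis) and the bars below the percent of its UMIs from the 9 genes that each gene supplied. Red (Smr3a) is at 19.3% or more in each Smr3a-rich cell and at 0.5816% or less elsewhere, and the Dcpp genes (blues) are at 0.5124% or less in each Smr3a-rich cell.

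The same genes were present at low levels throughout the library. Bpifa2 UMIs were detected in 82.55% of the remaining cells (median 2 UMIs) and Smr3a UMIs in 59.74%, at a median depth of 3032 UMIs. The 9 genes made up 0.167% of the UMIs of the remaining cells and 0.09954% of those of the other Epcam cells. Bpifa2, Smr3a and Dcpp1 took 42.63, 22.93 and 20.61% of the 9-gene UMIs in the remaining cells, against 42.58, 22.83 and 21.23% in the salivary secretory cells. In the other Epcam cells Pip took 19.19%, but 1427 of its 2099 UMIs were in a single cell, and 199 of the 904 cells had any. One other Epcam cell also had 147 of the 370 Car6 UMIs of that group, whereas no remaining cell had more than 15 Pip or 10 Car6 UMIs. How much of the low level in other cells is free RNA was not tested, and a low count of these genes in a cell was not read as expression.

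Positions of the genes (GENCODE M21, GRCm38) showed both neighbors and scattered loci. Smr3a lies on chromosome 5 from 88002549 to 88008534 (+), and BC037156, annotated as a lincRNA, lies 88.4 kb before it from 87908779 to 87914171 (+). Dcpp1 (23880876 to 23882853, +) and Dcpp3 (23917458 to 23919441, +) are on chromosome 17, and the gene model of Dcpp2 (23880880 to 23900788, +) spans Dcpp1, so that reads in Dcpp1 exons may have been ambiguous. Bpifa2 (154008265 to 154016079, +) and Cst10 (149405057 to 149410293, +) are on chromosome 2, Amy1 (113555710 to 113606699, -) on chromosome 3, Car6 (150187015 to 150201332, -) on chromosome 4 and Pip (41847535 to 41852065, +) on chromosome 6.

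The promoters of the leading genes are shown because these genes were high together or apart between the 3 groups. They are the 250 bases before the RefSeq gene start (GRCm38.p6, + strand), with each TATAA in capitals. For Bpifa2 (chr2:154008026-154008275), Smr3a (chr5:88002275-88002524), BC037156 (chr5:87908529-87908778) and Wfdc18 (chr11:83708754-83709003), which was highest in the Dcpp-led cells, they are:
Bpifa2: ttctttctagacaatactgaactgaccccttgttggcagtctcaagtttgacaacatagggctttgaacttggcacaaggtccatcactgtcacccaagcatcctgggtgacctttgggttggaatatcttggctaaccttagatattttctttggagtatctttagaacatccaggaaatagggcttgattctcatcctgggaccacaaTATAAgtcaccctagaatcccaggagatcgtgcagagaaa
Smr3a: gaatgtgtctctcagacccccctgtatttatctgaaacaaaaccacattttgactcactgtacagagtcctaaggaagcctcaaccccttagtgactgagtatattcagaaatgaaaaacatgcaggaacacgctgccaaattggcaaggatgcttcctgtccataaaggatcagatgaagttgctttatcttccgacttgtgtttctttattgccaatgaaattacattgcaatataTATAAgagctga
BC037156: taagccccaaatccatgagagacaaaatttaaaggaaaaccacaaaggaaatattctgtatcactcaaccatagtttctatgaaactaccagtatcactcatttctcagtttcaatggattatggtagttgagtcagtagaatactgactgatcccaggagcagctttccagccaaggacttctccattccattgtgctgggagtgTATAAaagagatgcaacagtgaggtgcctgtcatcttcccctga
Wfdc18: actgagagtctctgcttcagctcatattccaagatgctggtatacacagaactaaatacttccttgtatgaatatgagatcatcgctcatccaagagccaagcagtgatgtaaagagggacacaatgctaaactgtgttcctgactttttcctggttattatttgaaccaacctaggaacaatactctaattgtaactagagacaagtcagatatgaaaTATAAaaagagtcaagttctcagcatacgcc

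The Dcpp promoters are shown for their likeness. For Dcpp1 (chr17:23880626-23880875), Dcpp2 (chr17:23898472-23898721) and Dcpp3 (chr17:23917208-23917457), they are:
Dcpp1: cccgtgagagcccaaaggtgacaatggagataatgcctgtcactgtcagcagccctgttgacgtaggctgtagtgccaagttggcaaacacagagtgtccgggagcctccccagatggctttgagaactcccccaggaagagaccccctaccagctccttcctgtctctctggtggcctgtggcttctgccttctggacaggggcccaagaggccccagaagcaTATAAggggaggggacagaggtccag
Dcpp2: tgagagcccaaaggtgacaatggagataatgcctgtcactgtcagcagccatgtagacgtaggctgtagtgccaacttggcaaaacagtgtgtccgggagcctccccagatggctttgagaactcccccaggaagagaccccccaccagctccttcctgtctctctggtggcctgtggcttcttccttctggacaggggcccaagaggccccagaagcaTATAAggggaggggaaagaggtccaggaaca
Dcpp3: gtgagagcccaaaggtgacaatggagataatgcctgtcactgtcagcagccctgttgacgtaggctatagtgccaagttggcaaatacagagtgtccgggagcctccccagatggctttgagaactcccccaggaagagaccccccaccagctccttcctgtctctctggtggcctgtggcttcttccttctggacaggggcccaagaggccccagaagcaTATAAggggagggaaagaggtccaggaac

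TATAA, the core of the TATA box, was found on either strand in 7 of the 9 promoters (all but Car6 and Cst10) and in 22.8% of 32851 RefSeq promoters of the same length. On the printed strand it begins 26, 31 and 29 bases before the start of Dcpp1, Dcpp2 and Dcpp3, 40 before Bpifa2, 12 before Smr3a, 44 before BC037156 and 31 before Wfdc18. The Dcpp promoters are 96.7 to 97.6% identical to each other. CAGCTG, an E-box that helix-loop-helix factors can bind, was in 1 of the 9 (Car6) and in 13% of all promoters. CATATG, another E-box, was in 0 of the 9 and 3.46% of all, and TGACGTG, an element of the unfolded protein response, was in 1 (Pip) and 1.65%. These are matches of letters in the window, not binding sites.

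Genes outside the selection also differed widely between the salivary secretory and the other Epcam cells. Of 6400 genes with at least 10 UMIs over both groups and 20 CPM in 1 of them, 524 (8.19%) were at least 2-fold higher in the salivary secretory cells and 2295 (35.9%) at least 2-fold lower, with a median log2 ratio of -0.67. The 10 highest genes outside the 9 took 32.77% of the UMIs that the salivary secretory cells had outside the 9, which lowers the CPM of every other gene. With ratios centred on the median gene, 1116 genes were higher and 999 lower. A ratio of -0.67 is thus the level of a typical gene, and by group it was -1.18 in the Smr3a-rich, -0.13 in the Dcpp-led and -0.59 in the Bpifa2-led cells.

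Other salivary products were far higher than in the other Epcam cells. Of 40 further salivary products 25 are in the table and 19 were compared, of which 13 were at least 2-fold higher (8.19% of all genes) and 5 lower (35.9% of all genes), with a median log2 ratio of 6.55. Summed, the list was at 98324 CPM in the salivary secretory cells and 3008 CPM in the other Epcam cells, a log2 ratio of 5.03 (5.01 to 5.05), with 5.51 in the Smr3a-rich, 4.05 in the Dcpp-led and 4.96 in the Bpifa2-led cells. The 5 lower genes were Dmbt1, Ltf, Chil1, Muc13 and Lcn11. Of these, Lcn11 had UMIs in only 5 and Chil1 in 96 of the 904 other Epcam cells, and neither had any in the salivary secretory cells. Ltf (lactoferrin) was at 2.733 against 220.1 CPM, and Dmbt1, a mucosal scavenger receptor, at 13.67 against 720.7 CPM.

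BC037156 was the highest gene outside the 9. It was at 116622 CPM in the Smr3a-rich, 66967 CPM in the Dcpp-led and 267538 CPM in the Bpifa2-led cells, compared with 48.37 CPM in the other Epcam and 56.41 CPM in the remaining cells. It was detected in 70 of the 72 cells, and in single cells it ranged from 0 to 350314 CPM (median 75165). The log2 ratio over the other Epcam cells was 11.48 (11.36 to 11.61). After each cell was thinned to 1000 UMIs outside the 9 genes, 96% of the Smr3a-rich cells and all Dcpp-led and Bpifa2-led cells had a UMI of it, compared with 3.659% of the other Epcam and 6.06% of the remaining cells. Csn3 (kappa casein) lies between BC037156 and Smr3a, from 87925579 to 87932665, and was at 9.566 CPM in the salivary secretory cells against 841.0 CPM in the other Epcam cells. Hence neighbors at this locus differed in opposite directions.

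Several of the highest genes outside the 9 were at much higher levels in the Smr3a-rich than in the Dcpp-led cells. Chia1, the acidic chitinase, was at 91967 CPM in the Smr3a-rich cells, 51.2 CPM in the Dcpp-led cells and 98.95 CPM in the Bpifa2-led cells, and was detected in 39 of 39, 7 of 23 and 5 of 10. The remaining cells were at 27.69 CPM. Dnase1, a secreted nuclease, was at 42420, 17.07 and 3199 CPM in the same order, and the remaining cells at 17.75 CPM. At equal depth, Chia1 was detected in all Smr3a-rich cells, 4.762% of the Dcpp-led cells and 10% of the Bpifa2-led cells. Ggh, a gamma-glutamyl hydrolase, was at 32387, 627.2 and 2012 CPM, and Wfdc12, a protease inhibitor-like protein with a WAP domain, at 31737, 1131 and 6097 CPM. Both were still above the remaining cells in the Dcpp-led cells, where the remaining cells had 75.08 CPM of Ggh and 6.256 CPM of Wfdc12. In the median Smr3a-rich cell Chia1 was at 82021, Ggh at 24211 and Wfdc12 at 11299 CPM, each below its summed level. 2310057J18Rik was as high in the Bpifa2-led cells (57430 CPM) as in the Smr3a-rich cells (55767 CPM) but at 3021 CPM in the Dcpp-led cells.

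Some genes found in the Smr3a-rich cells were close to absent in the Dcpp-led cells, but not always in the Bpifa2-led cells. They included a pair of secretoglobins, small secreted proteins that can bind hydrophobic ligands. Scgb1b27 was at 4724 CPM in the Smr3a-rich cells, with no UMI in the Dcpp-led or Bpifa2-led cells. Scgb2b27 was at 5288 CPM in the Smr3a-rich cells, with 0 UMIs in the Dcpp-led and 109.9 CPM in the Bpifa2-led cells. Crisp1, a cysteine-rich secretory protein, was at 9549, 8.533 and 214.4 CPM. Mup5, a major urinary protein, had UMIs in 17 Smr3a-rich cells (840.1 CPM) and in none of the other salivary secretory cells. Ttr, the thyroid hormone carrier transthyretin, was found in 23 Smr3a-rich and 4 Bpifa2-led cells, and Cldn22, of the claudin family, in 26 and 1. Neither was found in a Dcpp-led cell.

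Proline-rich proteins, which coat the mouth and bind tannins, were highest in the Smr3a-rich cells and lowest in the Dcpp-led cells. Prb1 was at 1775 CPM in the Smr3a-rich, 21.33 CPM in the Dcpp-led and 604.7 CPM in the Bpifa2-led cells, and Prpmp5 at 1813, 25.6 and 912.6 CPM. Gm8882 was at 1807, 8.533 and 175.9 CPM. These 3 transcripts are 84.0 to 90.4% identical where they align, so their counts may be mixed. In the other Epcam cells none of the 3 exceeded 0.4555 CPM. Lpo was at 833.8, 25.6 and 269.4 CPM in the 3 groups. Pigr, which carries IgA into saliva, differed less, at 285.3, 123.7 and 219.9 CPM, and was at 2.186 CPM in the other Epcam cells.

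The opposite pattern, high in Dcpp-led and low in Smr3a-rich cells, was found in genes that were chosen after their values had been seen. Wfdc18, another protein with a WAP domain, was at 44563 CPM in the Dcpp-led, 24293 CPM in the Bpifa2-led and 28.53 CPM in the Smr3a-rich cells. The remaining cells were at 23.57 CPM and the other Epcam cells at 1776 CPM, where 314 of the 904 had a UMI, so Wfdc18 was not limited to the salivary secretory cells. Pglyrp1, which binds peptidoglycan, was at 1207 and 1319 CPM in the Dcpp-led and Bpifa2-led cells and had no UMI in the Smr3a-rich cells. Lbp, which binds lipopolysaccharide, was at 354.1, 214.4 and 9.511 CPM, and the mucosal chemokine Cxcl17 at 772.2, 98.95 and 3.17 CPM. Tmem176a was at 2133, 967.5 and 9.511 CPM. Azgp1, a secreted zinc-binding glycoprotein from the list above, was at 256.0, 236.4 and 76.08 CPM. The genes with the largest differences also included Tpm2, Tagln2 and Cyr61, at 366.9, 345.6 and 243.2 CPM in the Dcpp-led cells. In the Smr3a-rich cells they were at 9.511, 12.68 and 6.34 CPM. Tpm2 and Cyr61 UMIs were found in only 6 and 8 of the 23 Dcpp-led cells, and Tagln2 UMIs in 18.

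**Figure D3:**
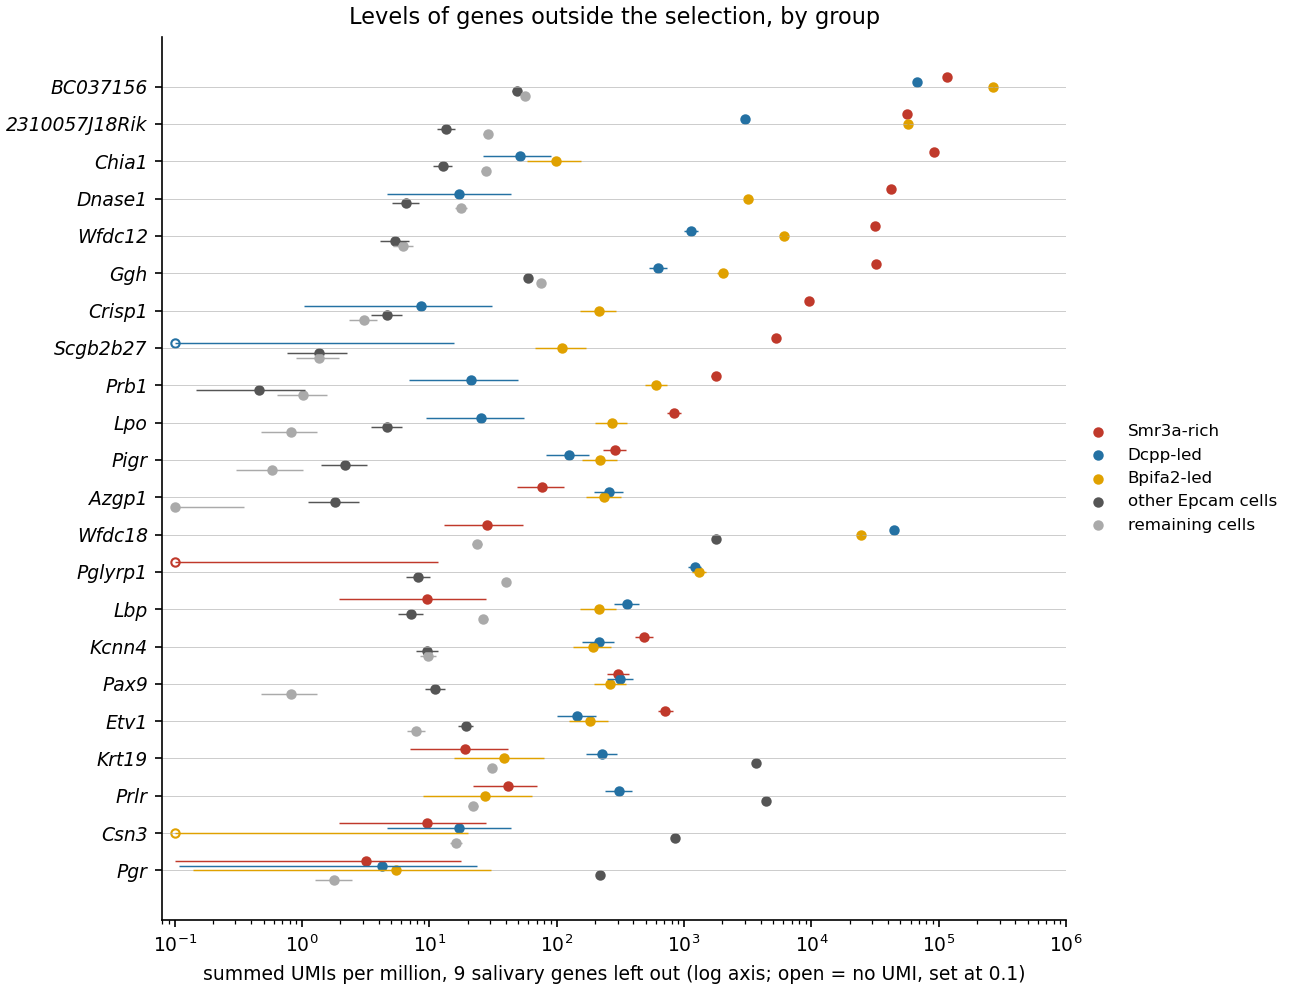
Points give the level of 22 genes outside the selection in CPM (log axis) for the 3 groups of salivary secretory cells, the other Epcam cells and the remaining cells, and lines the exact Poisson 95% interval (open points have no UMI). Chia1 and Dnase1 lie at or above 42420 CPM in the Smr3a-rich cells and at or below 51.2 CPM in the Dcpp-led cells, whereas Wfdc18 is at 28.53 and 44563 CPM.

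Some genes of the secretory machinery were higher. Of 55 genes for ER translocation and folding, 11 (20%) were at least 2-fold higher and 3 lower, with a median log2 ratio of 0.31, against 8.19% higher, 35.9% lower and -0.67 for all genes. The sum was at 15668 CPM in the salivary secretory and 10729 CPM in the other Epcam cells, a log2 ratio of 0.55 (0.52 to 0.57), and was 0.64, 0.61 and 0.28 in the Smr3a-rich, Dcpp-led and Bpifa2-led cells. By genes, the Smr3a-rich cells had 12 higher and 12 lower (median 0.07, against -1.18 for all genes), and the Dcpp-led cells 11 higher and 2 lower (median 0.52, against -0.13). The share of all genes past 2-fold was not counted within each group, so these counts have no background. Parts of the translocon and signal peptidase were higher. Ssr4 was at 1606 against 343.7 CPM, Sec61b at 1300 against 354.8 CPM, and Sec11c at 1043 against 179.3 CPM. Derl3, which helps to export misfolded proteins, was at 64.23 against 1.184 CPM. The chaperones named here were not among the higher genes over all salivary secretory cells. Hspa5 (BiP) was at 415.5 against 620.3 CPM and Calr at 317.1 against 577.3 CPM, both differing by less than 2-fold. Pdia6 was at 120.3 against 385.4 CPM. The log2 ratio of Hspa5 was -0.58, close to the -0.67 of a typical gene. By group, Hspa5 was at 240.9, 699.7 and 351.8 CPM in the Smr3a-rich, Dcpp-led and Bpifa2-led cells. It was thus not lower in the Dcpp-led cells.

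Golgi and granule genes were near the level of the other Epcam cells. Of 36 compared, 6 (16.67%, against 8.19% of all genes) were at least 2-fold higher and 4 lower (against 35.9%). The median log2 ratio was -0.01, against -0.67 for all genes. The sum gave -0.11 (-0.15 to -0.06). It turned to 0.03 when the salivary products were also left out of the totals and to 0.56 on centred ratios. Mcfd2, a cargo receptor subunit, was at 185.9 against 42.45 CPM and the KDEL receptor Kdelr3 at 36.9 against 2.915 CPM. The granule GTPases Rab3d, Rab26 and Rab27a were low in number, at 75.16, 15.03 and 13.67 CPM, against 34.89, 1.367 and 4.373 CPM. Of the pro-apoptotic arm of the ER stress response, 0 of 4 genes compared were higher (8.19% of all genes) and 2 lower (35.9% of all genes). Atf3 was at 748.9 against 1932 CPM and Ddit3 (CHOP) at 27.33 against 22.41 CPM.

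Many transcription factors of secretory epithelium were higher. Of 18 compared, 11 (61.11%, against 8.19% of all genes) were at least 2-fold higher and 2 lower (against 35.9%), with a median log2 ratio of 1.57. The Smr3a-rich cells had 8 higher and 4 lower (median 0.87, against -1.18 for all genes) and the Dcpp-led cells 12 and 2 (median 1.99, against -0.13). Shares of all genes by group were not counted here either. Pax9 was at 304.3, 315.7 and 263.9 CPM in the Smr3a-rich, Dcpp-led and Bpifa2-led cells and 11.11 CPM in the other Epcam cells. Etv1, an ETS factor, was at 713.3, 145.1 and 181.4 CPM against 19.31 CPM, so it was highest in the Smr3a-rich cells. Xbp1, which drives ER expansion, was at 456.5 against 198.9 CPM, and Creb3l1 at 90.2 against 5.648 CPM. Foxc1 was at 185.9 against 23.6 CPM. Sox9 was lower, at 142.1 against 846.7 CPM. The sum differed less (log2 ratio 0.18) and its most abundant member, Nupr1, was at 948.4 against 1308 CPM.

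Fluid and ion transport genes went in both directions. Of 18 compared, 6 were higher, against 8.19% of all genes, and 6 lower, a share close to the 35.9% of all genes (median log2 ratio -0.42), and the sum gave -1.06 (-1.126 to -1.002). Kcnn4, the calcium-activated potassium channel of acinar cells, was at 485.0, 213.3 and 192.4 CPM in the 3 groups and 9.657 CPM in the other Epcam cells. The sodium pump subunit Atp1b1 was at 677.8 against 98.02 CPM and the carbonic anhydrase Car2 at 143.5 against 9.201 CPM. The muscarinic receptor Chrm3 was at 20.5 against 2.642 CPM. Ano1, the calcium-activated chloride channel, was lower together with Slc12a2 and Aqp5, at 83.36 against 222 CPM.

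Genes of gland ducts were low in sum, but single genes went in both directions. Egf, a product of granular ducts, was at 35.53 against 1.275 CPM and was found in 18 of the 72 cells. The kallikrein Klk1, by contrast, had no UMI in the salivary secretory cells and was at 56.76 CPM in the other Epcam cells. With the other granular duct genes the sum was 45.1 against 87.82 CPM, where the median log2 ratio of the 2 genes compared was 0.50. In the other Epcam cells, UMIs of this list were found in only 109 of 904 cells. The highest of these cells was at 30882 CPM, so the sum does not give a general level. The sum of 12 genes of duct ion transport was 133.9 against 434.8 CPM. Of 5 compared, 2 (40%, against 8.19% of all genes) were at least 2-fold higher and 3 lower (against 35.9%). Their median log2 ratio was -3.24, against -0.67 for all genes.

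Epithelial and mammary genes were lower than in the other Epcam cells, which were themselves selected by Epcam. Of 20 genes of simple epithelium, 0 were at least 2-fold higher (8.19% of all genes) and 14 lower (35.9% of all genes). The median log2 ratio was -1.34, against -0.67 for all genes. Krt18 was at 469.2 CPM in the Smr3a-rich, 4036 CPM in the Dcpp-led, 1968 CPM in the Bpifa2-led and 4584 CPM in the other Epcam cells. Krt8 was at 1175 against 4076 CPM over all salivary secretory cells, Krt19 at 90.2 against 3662 CPM, and Krt7 at 60.13 against 984.1 CPM. Cldn10, a tight junction claudin, was higher in the Smr3a-rich cells (453.3 CPM) than in the other Epcam cells (182.2 CPM).

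Of 20 mammary luminal genes compared, 0 were higher (8.19% of all genes) and 18 lower (35.9% of all genes). The median log2 ratio was -4.37, against -0.67 for all genes. The sum was 604.0 against 13603 CPM, a log2 ratio of -4.49 (-4.63 to -4.36). Prlr, the prolactin receptor, was at 123.0 against 4380 CPM, Pgr, the progesterone receptor, at 4.1 against 220.2 CPM, and Cited1 at 2.733 against 502.4 CPM. The exceptions, Glycam1 and Kit, differed by less than 2-fold, and Glycam1, at 131.2 CPM, was at 6426 CPM in the remaining cells. Beside Csn3, Cited1, Pgr, Trf, Ltf and Dmbt1, the 15 genes with the lowest ratios included Ptn (38.27 against 4178 CPM), Fgb, Fgg, Hp, Aoc1, Nrxn3 and Gm5938. They also included Igkc and Obp1a, each of which reached over 20% of the UMIs of a single other Epcam cell, at 588589 and 228426 CPM.

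**Figure D4:**
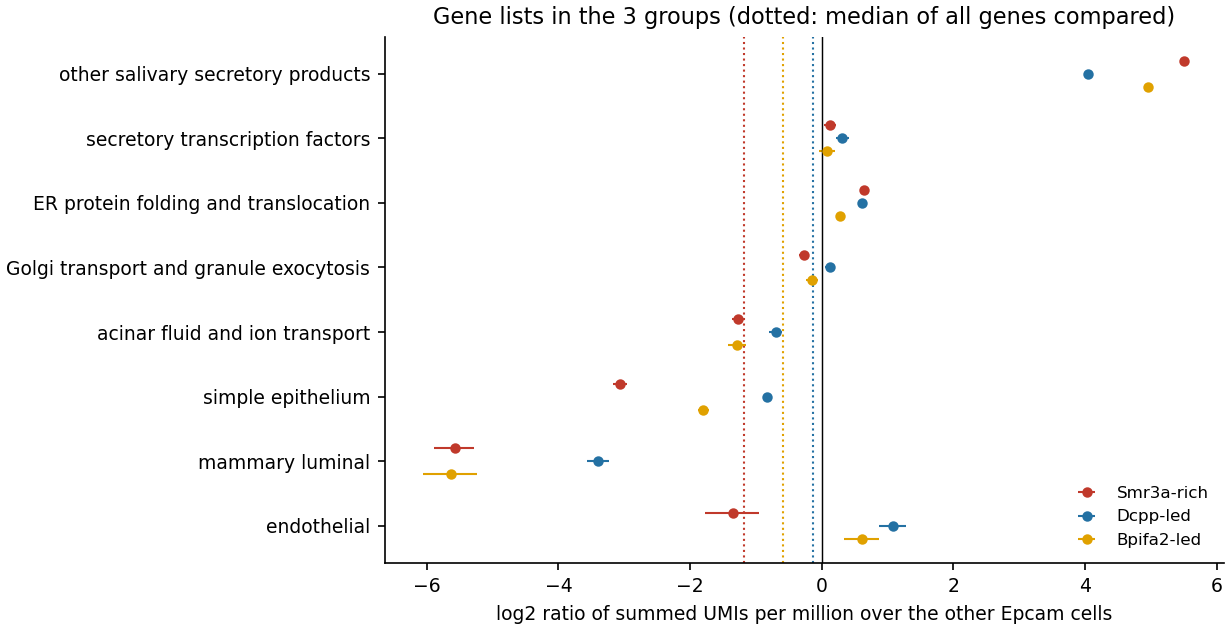
Points give the log2 ratio of each gene list, as summed CPM, in the 3 groups of salivary secretory cells over the other Epcam cells, and lines the exact conditional 95% interval; dotted lines mark the median of all genes compared in each group. Other salivary products lie at 4.05 to 5.51, mammary luminal genes at -5.63 to -3.40, and the endothelial list at -1.35 in the Smr3a-rich cells but 1.08 in the Dcpp-led cells.

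Markers of other cells moved with the groups. The endothelial list was at 164.9 CPM in the Smr3a-rich, 891.7 CPM in the Dcpp-led and 643.2 CPM in the Bpifa2-led cells, and 3, 9 and 7 cells had UMIs of at least 3 of its 10 genes. Basal and myoepithelial genes were at 38.04, 1353 and 43.98 CPM. The sum of the Dcpp-led cells came from few cells: the median cell was at 94.72 CPM, the highest at 7082 CPM, and 3 of 23 had UMIs of at least 3 of the genes. Most of it was Acta2 (546.1 CPM, in 4 cells) and Tagln (375.4 CPM, in 7 cells), which smooth muscle also expresses, whereas Trp63, Oxtr and Dkk3 had no UMI in any salivary secretory cell. Pericyte and smooth muscle genes were at 44.38, 806.4 and 71.47 CPM, and fibroblast genes at 12.68, 128.0 and 5.497 CPM. Immune genes had 2 UMIs in all 72 cells and adipocyte genes 7. The part of these markers in the differences between the groups was not tested. Without cells that had at least 3 endothelial genes, the log2 ratio of the other salivary products was 5.08 in place of 5.03.

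Depth and mitochondrial share also moved with the groups. The median mitochondrial share was 0.3854% in the Smr3a-rich, 2.109% in the Dcpp-led and 1.843% in the Bpifa2-led cells, and 5.409% in the other Epcam cells. The 9 genes are part of that total. In sums, which weigh deep cells more, the share was 1.472% in the Smr3a-rich, 2.129% in the Dcpp-led and 1.816% in the Bpifa2-led cells. The order of these sums changed without the 9 genes, but a median per cell without them was not taken. Of the summed UMIs outside the 9 genes, 8.266% were mitochondrial in the Smr3a-rich, 7.329% in the Dcpp-led and 4.708% in the Bpifa2-led cells, and 5.411% in the other Epcam cells. All 20 cells with less than 0.5% mitochondrial UMIs were Smr3a-rich, with a median of 4279.5 UMIs and 409 genes, and the other 19 Smr3a-rich cells had medians of 50164 UMIs and 1875 genes. Between these 20 and 19 cells some products were close and others were not. Chia1 was at 82169 and 93210 CPM, Dnase1 at 42155 and 42454 CPM, Ggh at 32186 and 32412 CPM, and the ER list at 15122 and 16919 CPM. BC037156 was lower in the first set, at 84394 against 120711 CPM, as were Kcnn4 (225.3 against 518.0 CPM, from 8 UMIs in the first set) and Etv1 (337.9 against 760.9 CPM, from 12). Wfdc12 was lower too, at 15713 against 33770 CPM, and so was the nuclear transcript Malat1, at 3013 against 8356 CPM, while Scgb2b27 was higher, at 8729 against 4851 CPM. The part of cell damage or of droplets without a whole cell in the low mitochondrial share was not tested.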

How the data were processed

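The deposited tables hold raw UMI counts for each gene and barcode, which the authors did not normalize. The submitters' processing notes name Cell Ranger, Seurat and the build mm10, and the paper's reporting summary gives versions of Seurat and the Loupe browser. The version of Cell Ranger and the annotation are not given in the sources used here. The normal table holds 17641 genes, 9047 barcodes and 40914092 UMIs (median 2973 per barcode), and the file of the tumor library 15644 genes, 704 barcodes and 18980858 UMIs (median 14106.5). The libraries share 3 barcodes, none of a salivary secretory cell. The number of unused columns was 0.

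The tools used for sums, shares, ratios and plots were pandas 2.3.3, scipy 1.17.1, numpy 2.4.6 and matplotlib 3.10.9, run under Python 3.11.15. Sums have Poisson, shares Clopper-Pearson and ratios exact conditional binomial intervals at 95%. They cover counting error only, with 1 library per condition. In ratios, counts under 3 were set to 3 when genes were ranked or bounded. To compare shares at equal depth, cells were thinned to 1000 UMIs outside the 9 genes, which 56 of 72 salivary secretory (25 Smr3a-rich, 21 Dcpp-led and 10 Bpifa2-led), 902 of 904 other Epcam and 5297 of 5673 remaining cells reached. No doublet caller was run, and cells with at least 3 of 10 endothelial markers were left out in an alternative. The calculation of the ratio was run on counts simulated for this comparison. Intervals held the true value for 95.4% of 5635 unchanged genes, 0.3017% of which passed 2-fold. Those counts were Poisson draws from the pooled sums, the model that the intervals assume. The simulation therefore checks the calculation only and says nothing about spread between cells.

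The 9 genes, the cell selection and the gene lists were chosen with earlier results of these data known. Genes named are the 9, up to 8 members of each list with the highest level in the salivary secretory cells, markers of other cell types, the 15 genes with the largest ratio in each direction at 100 CPM or more, and the 15 highest genes outside the 9. The split by Smr3a and the genes that differed most between Smr3a-rich and Dcpp-led cells were chosen after their values had been seen, and so were list members named beyond the 8 highest and the within-group comparison by mitochondrial share. Positions are from GENCODE M21 and promoters from RefSeq. The tumor library entered only in a count of selected cells.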

Additional observations from a re-analysis of the deposited data

Results flagged for a closer look

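Outside the limits on genes and mitochondrial UMIs, 38 more barcodes of the normal library had at least 20% of their UMIs from the 9 genes. They stand out because no comparison used them. Of these, 22 had less than 200 genes, 17 had 10% or more mitochondrial UMIs and 1 had both. They are 1.79% (1.27 to 2.449%) of the 2123 barcodes outside the limits, compared with 1.04% inside, and held 657 to 55669 UMIs (median 1675.5).

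In the tumor library, which has no salivary secretory cell, Car6 was the 1 gene of the 9 that is listed, with 8 UMIs in 7 cells of 18980858 UMIs in all. No label gives a level of Car6 in tumor ECs to set this against.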

How the results depend on the processing

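The log2 ratio of the other salivary products (5.03) stayed between 4.84 and 5.70. It was 5.243 below 5% mitochondrial UMIs, 5.059 with a threshold of 50% for the 9 genes, 5.179 and 4.982 against cells with at least 1 or 5 Epcam UMIs, 5.17 with the salivary lists out of the totals, 5.286 as a mean over cells, 5.078 without cells with endothelial markers, 5.326 at equal depth, 4.843 without the 5 deepest cells and 5.701 when centred on the median gene. The last 2 settings were chosen after seeing the data, and the 5 deepest cells, all Smr3a-rich, hold 37.54% of the UMIs. For the lists below, these settings are named in the same words. The ER list (0.5463) was 0.6856 with the salivary lists out, 0.4847 as a mean, 0.6119 without endothelial-marked cells, 0.5114 at equal depth, 0.4417 without the 5 deepest and 1.216 centred. The Golgi list (-0.1059) was -0.04255 against cells with 1 Epcam UMI, 0.0334 with the salivary lists out, -0.1544 as a mean, -0.01151 at equal depth, -0.04853 without the 5 deepest and 0.564 centred, so its direction depends on the totals. Fluid transport (-1.064) was -0.6391 below 5% mitochondrial UMIs, -0.924 against 1 Epcam UMI, -0.9245 with the salivary lists out, -1.173 as a mean, -1.184 at equal depth and -0.3939 centred. Mammary luminal genes (-4.493) were -4.354 with the salivary lists out, -3.466 as a mean, -4.21 without endothelial-marked cells, -4.187 without the 5 deepest and -3.823 centred. The endothelial list (0.2968) was 0.03496 at 50%, -1.037 against 1 Epcam UMI, 0.4643 against 5, 0.763 as a mean, 0.5111 without endothelial-marked cells, 0.7366 at equal depth, 0.6678 without the 5 deepest and 0.9666 centred, so its direction depends on the comparison cells. The cause was not tested.

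The genes at least 2-fold higher (524) numbered 853 at equal depth, 1637 with no minimum count, 161 at 100 CPM and 1116 centred, and those lower (2295) 568, 588 and 999 at equal depth, at 100 CPM and centred. The share of the 9 genes (76.0%) was 76.17% below 5% mitochondrial UMIs, 75.94% with at least 500 genes, and 75.9% and 78.03% at thresholds of 10 and 50%. No paired analysis was possible because each condition has 1 library. Of 72 cells, 17 had less than 5000 UMIs, so a gene missing from 1 of them may be below its depth.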
